A study of Nasonia vitripennis with 79 samples.

Results

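Nicotinic acetylcholine receptors are ion channels in the cell membrane that open when the transmitter acetylcholine binds. Each channel is a ring of subunits encoded by separate genes, and alpha subunits carry the main part of the binding site, which they share with the neighbouring subunit. In insects these receptors carry much of the fast excitatory signalling of the brain and nerve cord, and they are the target of neonicotinoid insecticides. The 4 genes described here are the alpha subunit genes nAChRa1, nAChRa10 and nAChRa11 and the beta subunit gene nAChRb1 of the parasitoid wasp Nasonia vitripennis. They are 4 of 14621 rows in the deposited gene table, which holds 8 other nicotinic subunit genes by symbol. The 4 were chosen with earlier results of these data known, so counts of them called are not those of an unselected set. In the aphid Myzus persicae, the beta1 subunit is a known site of neonicotinoid resistance mutations. No separate role of nAChRa10 or nAChRa11 is given here.

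The study sequenced poly(A) RNA from heads and abdomens of the WOM line, an artificially polyploid line made by knocking down a gene of the sex determination pathway. All groups belong to this line, and all wasps were sampled 1 day after emergence. In this species unfertilised eggs normally give haploid males and fertilised eggs give diploid females, and the line also holds triploid females and diploid males. The female groups were triploid (3N) and diploid (2N) at generation F14 and at generation F2. The male groups were diploid (2N) and haploid (1N) at generation F15 and at generation F3. Each of the 16 combinations of sex, generation, chromosome sets and tissue had 5 libraries, except F14 3N female abdomens with 4. The labels do not say whether a library is 1 animal or a pool, or whether replicates came from separate cultures, so a p-value here covers only how far these libraries spread, which may be partly technical. Females and males were never sampled in the same generation, and F2 and F3 are called early and F14 and F15 late.

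The 5 libraries labelled F2 2N female abdomen were left out, which left 74 of 79 libraries in 15 groups. Their level of Lop1, a long-wavelength opsin of the eye, was 1958 to 4636 CPM (library-scaled counts per 1e6 counts), against 0 to 319 CPM in the other 34 abdomen libraries. Their summed level of the ovary markers oskar and nanos was 2.702 to 42.0 CPM, against 260.2 to 965 CPM in the other female abdomens. In the other groups the labels fitted these markers: Lop1 was at least 707 CPM in the 40 head libraries, and among abdomens only library D119 of F15 2N males, at 319 CPM, was above 20 CPM. Library totals ran from 12.63 to 45.8 M counts (1 M is 1e6 counts) in heads and from 16.9 to 94.98 M in abdomens. No within-group pair of libraries agreed to within counting noise: among 156 pairs, chi-square divided by its degrees of freedom was 7.57 or more.

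Group means in heads were 44.4 to 139 CPM for nAChRa1, 14.7 to 53.4 CPM for nAChRa10, 50.4 to 96.4 CPM for nAChRa11 and 5.61 to 89.3 CPM for nAChRb1. On the TPM scale, which corrects for transcript length and so allows levels of different genes to be compared, nAChRa11 had a median of 24.5% of the summed level of 12 nicotinic subunit genes in heads. By the same measure nAChRb1 held 12.8%, nAChRa1 6.72% and nAChRa10 4.17%. The largest share, 28.7%, was that of nAChRa8, another alpha subunit. In abdomens the shares were 11.9% for nAChRa11, 8.13% for nAChRb1, 4.67% for nAChRa10 and 2.71% for nAChRa1. The 12 genes together summed to a group mean of 521 to 704 TPM in heads and 7.99 to 61.3 TPM in abdomens.

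**Figure D1:**
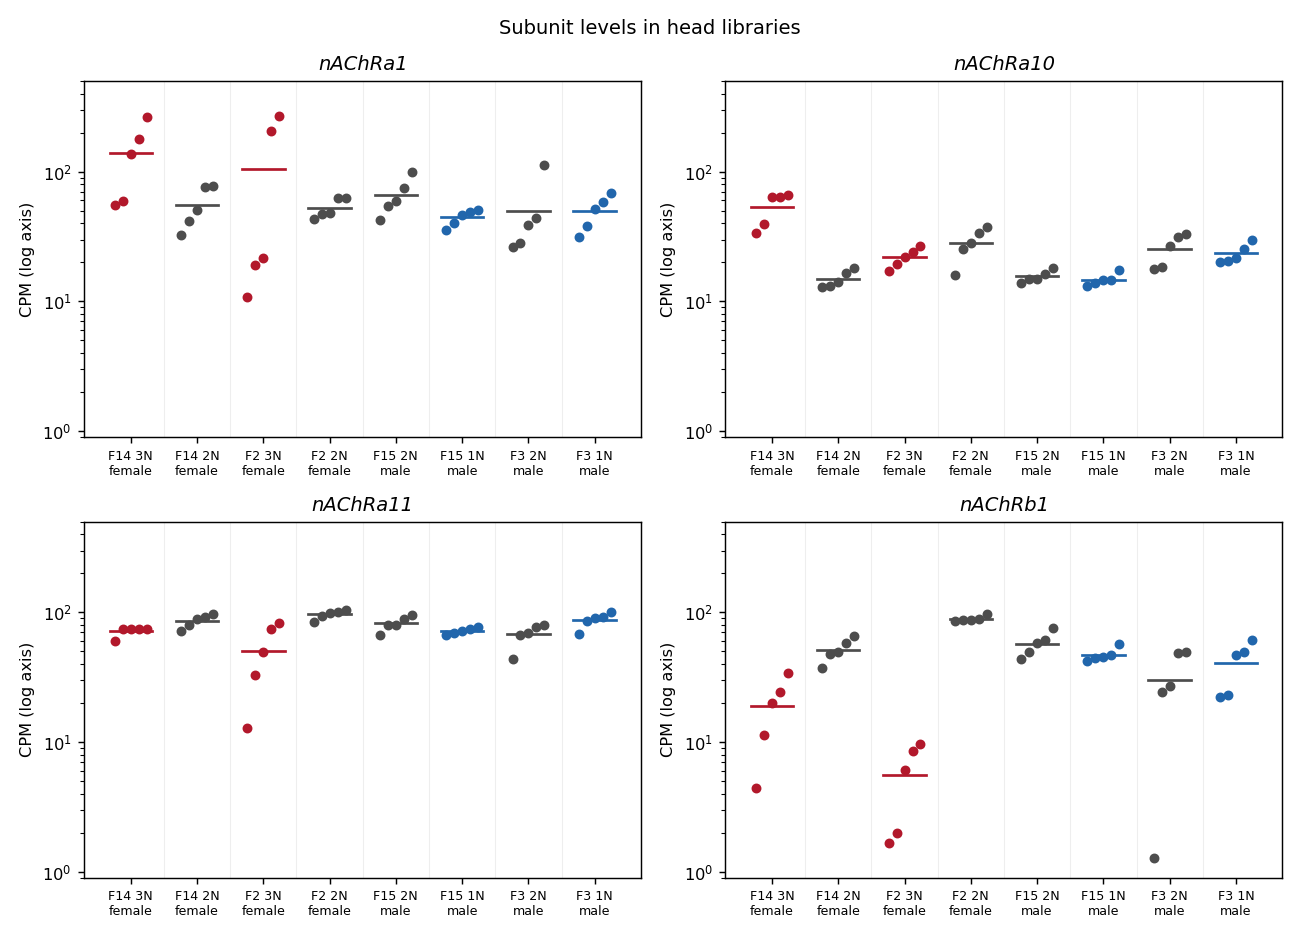
Level of each gene in the 40 head libraries, as CPM on a log axis, with 1 point per library and a line at the group mean. Triploid groups are red, diploid grey and haploid blue. nAChRb1 is low in all 5 F2 3N libraries (1.68 to 9.68 CPM) and high in all 5 F2 2N libraries (85.9 to 96.9 CPM), and nAChRa1 splits the F2 3N libraries into 2 above 200 CPM and 3 below 22 CPM.

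Within heads, the order of the group means differed from gene to gene. For nAChRa1 the means ran from 139 ± 87.9 CPM (SD, n = 5) in F14 3N females and 104.5 ± 122 CPM in F2 3N females down to 44.4 ± 6.30 CPM in F15 1N males. For nAChRa10, F14 3N females were highest at 53.4 ± 15.4 CPM, and F15 1N males, F14 2N females and F15 2N males were lowest, at 14.7 ± 1.72, 14.9 ± 2.24 and 15.6 ± 1.65 CPM. For nAChRa11 the range was narrow, from 96.4 ± 7.94 CPM in F2 2N females to 50.4 ± 28.8 CPM in F2 3N females. For nAChRb1, F2 2N females were highest at 89.3 ± 4.34 CPM and F2 3N females lowest at 5.61 ± 3.67 CPM, followed by F14 3N females at 18.8 ± 11.5 CPM. Of the 7 pairs of neighbours in each of these orders, the library ranges were apart in 1 pair for nAChRb1, between F2 2N females and F15 2N males, and in 0 pairs for each alpha subunit. Adjacent groups were thus mostly not separable beyond their spread, and the tests below compare the groups the design sets against each other.

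Heads had more of each gene than abdomens in the 7 combinations of sex, generation and ploidy that could be compared, which leaves out F2 2N females. The head groups were tested against the abdomen groups of the same sex, generation and ploidy with edgeR's quasi-likelihood test, and a gene was called where its Benjamini-Hochberg adjusted p over all genes tested was under 0.05. All 4 genes were called higher in heads in all 7 comparisons, a direction that 29.9% to 46.7% of all genes tested shared. Among all genes tested, the share called higher in heads was 35.9%, 31.8% and 46.7% in F14 2N, F14 3N and F2 3N females, and 29.9%, 31.3%, 31.8% and 33.7% in F15 1N, F15 2N, F3 1N and F3 2N males. Counting both directions, the shares in the same order were 74.9%, 66.9%, 84.5%, 62.6%, 67.3%, 66.8% and 66.2%. For nAChRa11 the log2 fold change ran from 3.21 ± 0.20 (SE) in F3 2N males to 8.92 ± 0.64 in F2 3N females. For nAChRa1 it ran from 3.78 ± 0.34 to 9.18 ± 0.90 in the same groups, and for nAChRa10 the smallest was 1.72 ± 0.34, in F15 2N males. For nAChRb1 the smallest was 2.62 ± 0.57, in F15 1N males.

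The largest head to abdomen differences were in F2 3N females, where the abdomens held almost no reads of these genes. nAChRb1 had 604 counts over the 5 F2 3N heads and 0 counts over the 5 abdomens, which makes it at least 241-fold higher in heads, taking 3 counts over the group as the limit that 0 allows. nAChRa10 had 2299 counts in these heads and 3 counts in the abdomens, a ratio of 919 with a 95% counting interval of 314 to 4459. Library values of heads and abdomens overlapped for 1 gene in 1 group, nAChRb1 in F3 2N males, through head library D13 at 1.27 CPM. Among all genes tested, the share with no overlap in the same 7 groups was 72.8%, 44.2%, 71%, 59.3%, 50.5%, 55.9% and 44.2%. In bulk tissue, fewer cells of a type and less RNA per cell cannot be told apart. Abdomens also had less of the neuronal gene Syt1, the calcium sensor of synaptic vesicle release: 2.90 to 240 CPM over the 34 abdomen libraries, against 372 to 1675 CPM in heads. Of 5 neuron symbols looked up, Syt1 was the 1 in the table. The part of Syt1 in the difference was not tested.

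In F2 female heads, nAChRb1 was the subunit with the largest triploid to diploid difference. Its levels were 8.56, 9.68, 1.68, 2.00 and 6.11 CPM in 3N heads (libraries D31 to D35), against 87.7, 87.6, 88.6, 96.9 and 85.9 CPM in 2N heads. Every 3N library was below every 2N library, and the 2N libraries were close to each other. The fitted log2 fold change was -4.003 ± 0.51 (edgeR adjusted p = 6.7e-06), that is 16.03-fold lower in 3N heads. nAChRa11 had 82.7, 74.0, 12.9, 33.2 and 49.3 CPM in 3N heads, against 104.3, 94.4, 83.8, 98.6 and 101.002 CPM in 2N heads. Here too the groups did not overlap, by a narrow margin between D31 and the lowest 2N library. nAChRa11 fell by 0.95 ± 0.31 on the log2 scale (edgeR adjusted p = 0.018), and missed the threshold when the 2 groups were fitted alone (adjusted p = 0.081).

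nAChRa1 did not behave as 1 group in F2 3N heads. It had 205 and 267 CPM in D31 and D32 but 19.1, 10.9 and 21.4 CPM in D33, D34 and D35, against 47.9, 47.2, 62.8, 63.1 and 43.4 CPM in 2N heads. The 2N libraries thus lay between 2 sets of 3N libraries, and the comparison of all 5 libraries was not called (log2 0.98 ± 0.69, edgeR adjusted p = 0.27). Without D31 and D32 the value was -1.63 ± 0.46 (edgeR adjusted p = 0.0091), so the direction rests on these 2 libraries. They stood apart by the levels under test, so p-values without them, here and below, are not independent of those levels. On log2(TPM + 1) with all 5 libraries the nAChRa1 value was -0.16 (limma adjusted p = 0.88). D31 and D32 were also the highest 3N libraries for nAChRa11 and nAChRb1, and without them nAChRa11 was -1.60 ± 0.27 (edgeR adjusted p = 2.2e-04) and nAChRb1 -4.762 ± 0.58 (adjusted p = 1.7e-05). nAChRa10 had 26.9, 23.9, 17.04, 19.5 and 22.02 CPM in 3N heads, against 37.8, 28.4, 15.9, 33.4 and 25.1 CPM in 2N heads, and the groups overlapped (log2 -0.39 ± 0.22, edgeR adjusted p = 0.18; without 2N library D23, -0.54 ± 0.21 and adjusted p = 0.048). In this comparison 2 of the 4 genes were called and did not overlap, against 42.4% of all genes tested called and 35.8% not overlapping.

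In F14 female heads, nAChRa10 was higher and nAChRb1 lower in triploids. nAChRa10 had 33.9, 64.3, 66.1, 63.3 and 39.4 CPM in 3N heads (D81, D82B, D83B, D84 and D85), against 12.97, 14.1, 18.02, 16.5 and 13.1 CPM in 2N heads. All 3N libraries were above all 2N libraries, and nAChRa10 rose 3.55-fold (log2 1.83 ± 0.23, edgeR adjusted p = 1.9e-05). nAChRb1 had 34.2, 4.43, 11.4, 19.9 and 24.3 CPM in 3N heads, against 66.2, 58.3, 49.2, 47.6 and 36.9 CPM in 2N heads. The groups did not overlap, although D81 came close to the lowest 2N library. nAChRb1 fell by 1.46 ± 0.46 on the log2 scale (edgeR adjusted p = 0.021), or 2.75-fold, and missed the threshold without D83B (adjusted p = 0.055).

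The other 2 genes were not called in F14 heads, where 2 of 4 were called and did not overlap, against 29.7% of all genes tested called and 22.6% not overlapping. nAChRa1 had 177, 266, 137, 59.0 and 55.1 CPM in 3N heads, against 76.9, 75.9, 42.0, 32.6 and 51.0 CPM in 2N heads. Of the 3N libraries 3 were above every 2N library and 2 were among them (log2 1.32 ± 0.69, edgeR adjusted p = 0.16); fitted with these 2 groups alone, nAChRa1 passed (1.35, adjusted p = 0.042). nAChRa11 was at 60.4 to 75.0 CPM in 3N heads and 72.4 to 98.01 CPM in 2N heads (log2 -0.27 ± 0.31, adjusted p = 0.53).

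The triploid effect on nAChRa10 and nAChRb1 differed between generations. The difference between the effects, F14 minus F2, was 2.21 ± 0.32 on the log2 scale for nAChRa10 (edgeR adjusted p = 8.8e-05) and 2.55 ± 0.65 for nAChRb1 (adjusted p = 0.0077). nAChRa10 was higher in triploids at F14 and not called at F2, whereas nAChRb1 was lower in both and less so at F14. The differences for nAChRa1 (0.35 ± 0.96) and nAChRa11 (0.68 ± 0.43) were not called, with adjusted p values of 0.83 and 0.27. The share of all genes tested that were called was 24.3%. Without D31 and D32 all 4 genes were called, nAChRa1 at 2.96 ± 0.59 (adjusted p = 0.0019) and nAChRa11 at 1.35 ± 0.34 (adjusted p = 0.0088). Because D31 and D32 stood apart by the levels of these genes, these calls are not independent of those levels.

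Some markers of other tissues in heads moved with the same comparisons, and others were not called. The eye marker Lop1 (edgeR log2 0.26 at F2 and -1.20 at F14) was called in neither. Nor were the ovary marker oskar (0.99 and -0.01) and the fat body marker Hex70b (0.64 and -2.01). Of 8 muscle symbols looked up, 3 were in the table (Tm1, Tm2 and Zasp66), none at 0. Their sum was 443 to 680 CPM in F2 3N heads, against 2046 to 6699 CPM in F2 2N heads, and 1053 to 7977 CPM in F14 3N heads, against 844 to 1174 CPM in F14 2N heads. Of the 3, the tropomyosin gene Tm1 and the muscle Z-disc gene Zasp66, were called lower in F2 3N heads (edgeR log2 -3.18 and -2.79) and higher in F14 3N heads (2.25 and 1.94). Across the 40 heads, the sum had a Pearson r of 0.59 and a Spearman rho of 0.31 with nAChRa10, and an r of 0.22 after group means were removed. Syt1 was at 372 to 1253 CPM in F2 3N heads, against 829 to 963 CPM in 2N heads, and was not called (log2 -0.30 ± 0.29, adjusted p = 0.42). D31 and D32 had 1089 and 1253 CPM of Syt1, and the other 3 libraries of F2 3N heads 372 to 518 CPM. Across the 40 heads with group means removed, Syt1 had an r of 0.70 with nAChRa11, 0.59 with nAChRa1, 0.57 with nAChRb1 and 0.15 with nAChRa10. At F14 Syt1 was called higher in 3N heads (log2 0.82 ± 0.29, adjusted p = 0.040). The part of these markers in the subunit differences was not tested.

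**Figure D2:**
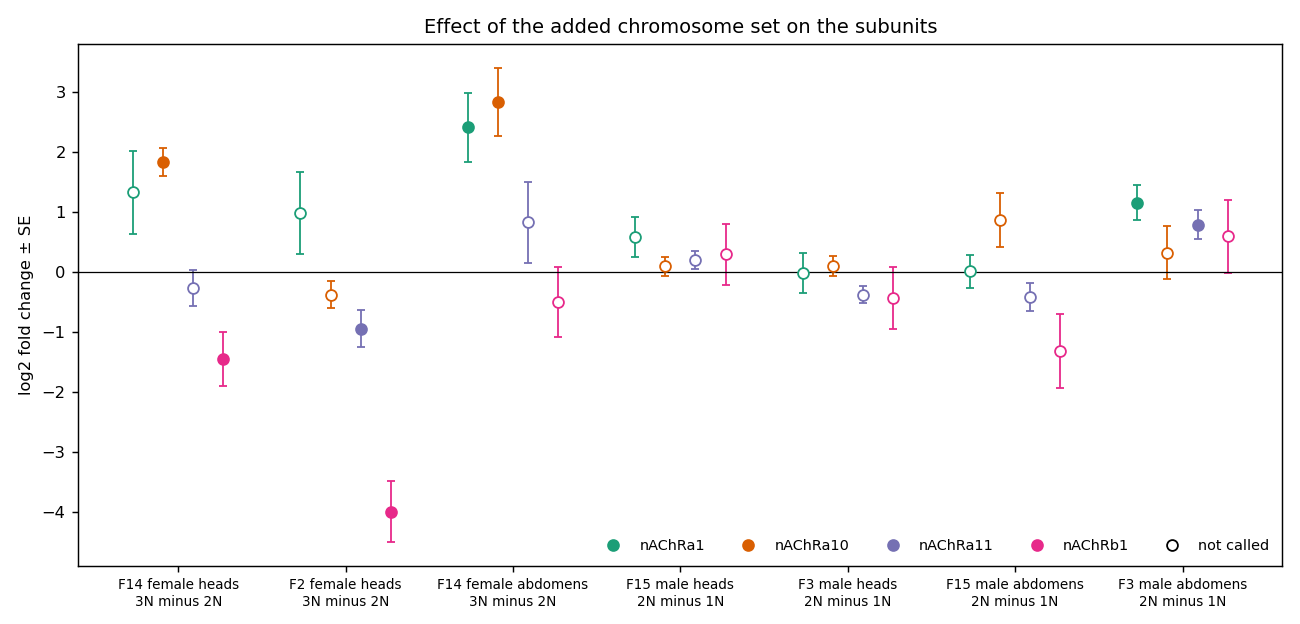
Log2 fold change (± SE) of the 4 genes with 1 added chromosome set, in each of 7 comparisons of 3N with 2N females or 2N with 1N males. Filled points have an edgeR adjusted p under 0.05; the lowest is nAChRb1 in F2 female heads at -4.003, and the highest called value is nAChRa10 in F14 female abdomens at 2.83.

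In F14 female abdomens, 2 of the 4 genes were called, both higher in triploids, against 37.8% of all genes tested called, 21.9% called higher and 33.6% not overlapping. nAChRa10 had 9.32, 3.999, 2.51 and 1.59 CPM in the 4 3N abdomens, against 0.904, 0.568, 0.743, 0.606 and 0.878 CPM in 2N abdomens. nAChRa1 had 4.20, 2.90, 2.85 and 1.46 CPM in 3N abdomens, against 0.750, 0.553, 0.297, 0.799 and 0.826 CPM in 2N abdomens. For both genes every 3N library was above every 2N library. The log2 fold changes were 2.83 ± 0.57 for nAChRa10 (edgeR adjusted p = 0.0018) and 2.41 ± 0.57 for nAChRa1 (adjusted p = 0.0053).

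nAChRa11 had 3.02, 3.62, 0.579 and 0.228 CPM in F14 3N abdomens, against 0.974 to 1.596 CPM in 2N abdomens. The 3N libraries lay on both sides of the 2N libraries, and the difference was not called (log2 0.82 ± 0.68, edgeR adjusted p = 0.35). nAChRb1 was at 0.290 to 1.64 CPM in 3N abdomens and 0.923 to 1.93 CPM in 2N abdomens (log2 -0.51 ± 0.58, adjusted p = 0.51). Syt1 was at 28.6 to 96.9 CPM in 3N abdomens, against 17.85 to 27.7 CPM in 2N abdomens, and rose by 1.83 ± 0.30 on the log2 scale (edgeR adjusted p = 4.7e-04). The muscle sum was 1505 to 3637 CPM in 3N abdomens, against 1029 to 1255 CPM in 2N abdomens, with Tm1 and Zasp66 called higher (edgeR log2 1.44 and 2.48). The ovary marker nanos was lower, at 11.2 to 52.5 CPM in 3N abdomens, against 69.3 to 100.3 CPM in 2N abdomens (log2 -1.46 ± 0.37, edgeR adjusted p = 0.0080), and oskar was not called. The fat body marker Hex70b, a storage protein gene, was higher, at 0.410 to 4.32 CPM against 0.0258 to 0.442 CPM (3.38 ± 0.84, adjusted p = 0.0068), and so was Lop1, at 0 to 2.05 CPM against 0 to 0.149 CPM (3.66 ± 1.35, adjusted p = 0.046). The part of these markers was not tested. Totals were 16.9 to 17.5 M counts per 3N library and 46.0 to 94.98 M per 2N library.

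**Figure D3:**
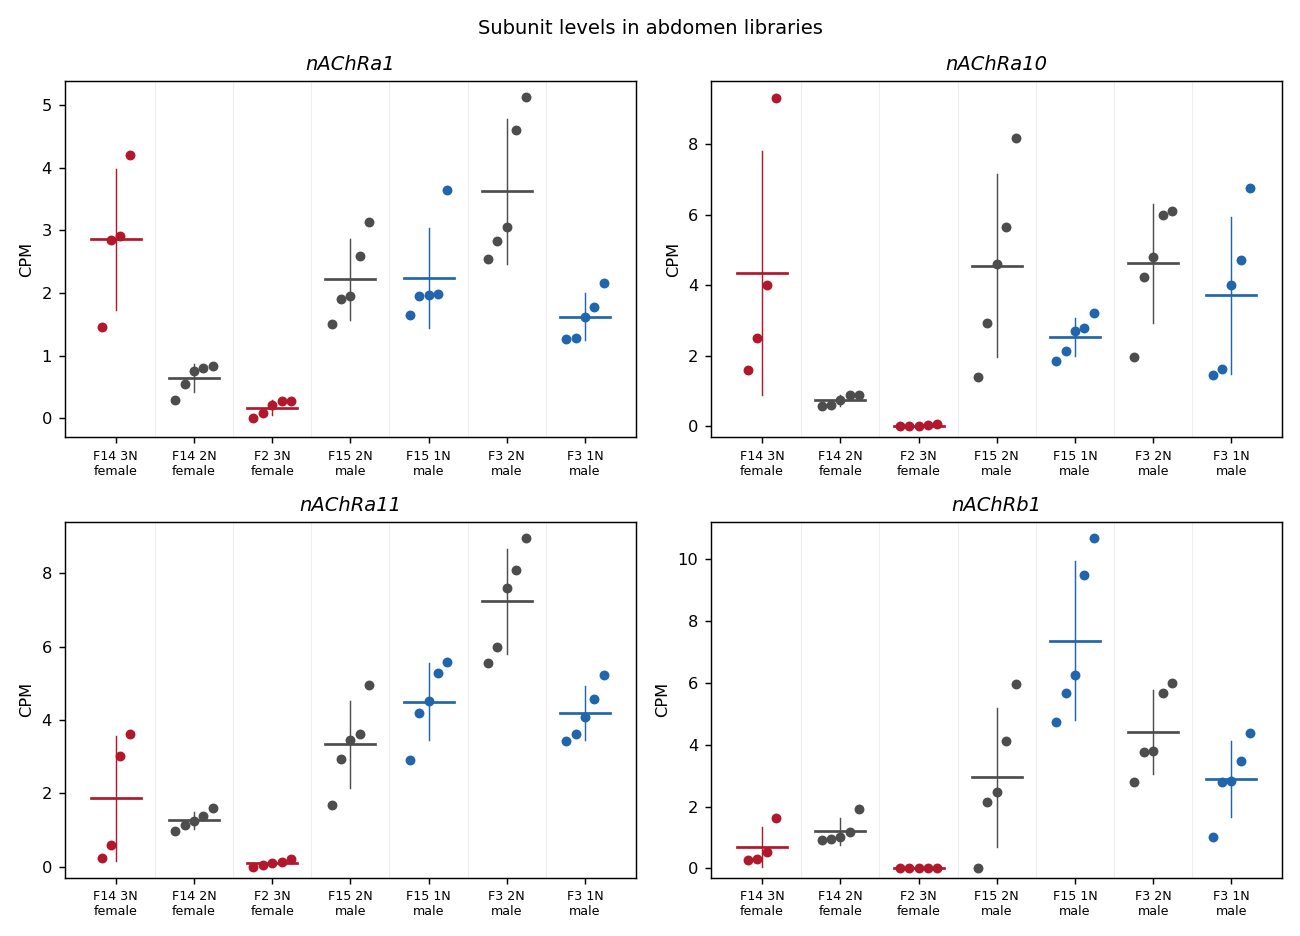
Level of each gene in the 34 abdomen libraries used, as CPM, with 1 point per library, a line at the group mean and a bar of 1 SD on each side. Triploid groups are red, diploid grey and haploid blue. All 4 genes are at or near 0 in F2 3N females, and the highest nAChRb1 level is 10.7 CPM, in an F15 1N male library.

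In male heads, 0 of 4 genes were called between diploids and haploids at F15, where 0.109% of all genes tested were called and 5.42% did not overlap, and 0 of 4 at F3, where 16.2% were called and 10.5% did not overlap. At an unadjusted p under 0.05, 1001 and 3675 genes passed at F15 and F3. The fitted values were small at F15, from 0.08 ± 0.17 for nAChRa10 to 0.57 ± 0.34 for nAChRa1, and the 95% interval for nAChRa10 was -0.24 to 0.41. At F3 they ran from -0.44 ± 0.51 for nAChRb1 to 0.10 ± 0.16 for nAChRa10. nAChRa11 came nearest to the threshold at F3 (log2 -0.39 ± 0.15, edgeR adjusted p = 0.073), with 43.7 to 79.8 CPM in 2N heads and 68.4 to 99.9 CPM in 1N heads; DESeq2 gave an adjusted p of 0.037, and edgeR without haploid library D1 gave 0.041.

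On the CPM scale, library D13 of F3 2N male heads stood apart in 3 of the 4 genes. It had 112.9 CPM of nAChRa1, against 26.2 to 43.7 CPM in the other 4 libraries of its group, and 1.27 CPM of nAChRb1, against 24.3 to 49.9 CPM. For nAChRa11 it was lowest in its group at 43.7 CPM, and for nAChRa10 it lay within it at 31.3 CPM. On the TPM scale D13 was close to its group for nAChRa1, at 38.2 TPM against 20.45 to 34.1 TPM. For nAChRa10 it was lowest, at 18.5 TPM against 22.4 to 38.9 TPM. nAChRb1 stayed far apart, at 1.01 TPM against 39.8 to 85.6 TPM. Without D13 the F3 values in male heads were -0.58 ± 0.25 for nAChRa1, -0.16 ± 0.29 for nAChRb1, -0.29 ± 0.11 for nAChRa11 and -0.00314 ± 0.17 for nAChRa10, and none was called.

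In F3 male abdomens, diploids had more nAChRa1 and nAChRa11 than haploids, 2 of 4 genes against 16.6% of all genes tested called, 8.03% called higher and 15.1% not overlapping. nAChRa1 had 2.53, 2.82, 4.596, 3.04 and 5.12 CPM in 2N abdomens, against 1.62, 2.16, 1.28, 1.78 and 1.26 CPM in 1N abdomens. nAChRa11 had 7.60, 5.99, 5.55, 8.96 and 8.10 CPM in 2N abdomens, against 3.61, 3.42, 4.57, 5.23 and 4.08 CPM in 1N abdomens. Neither gene overlapped between groups. nAChRa1 rose 2.22-fold (log2 1.15 ± 0.29, edgeR adjusted p = 0.011) and nAChRa11 rose 1.72-fold (0.78 ± 0.24, adjusted p = 0.031). The nAChRa11 call was lost on leaving out any 1 of D6, D9, D10, D16, D19 or D20, with adjusted p from 0.051 to 0.090. nAChRa10 (0.31 ± 0.44) and nAChRb1 (0.59 ± 0.61) were not called, with adjusted p of 0.68 and 0.56. Syt1 was lower in 2N abdomens, at 110.8 to 136 CPM against 134 to 240 CPM in 1N abdomens. Zasp66 was called lower (edgeR log2 -0.93 ± 0.20), and Tm1 and Tm2 were not called. The part of these markers was not tested.

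At F15 none of the 4 genes was called in male abdomens by edgeR, where 11.1% of all genes tested were called, 5.19% did not overlap and 3509 had an unadjusted p under 0.05. nAChRa10 was at 1.40 to 8.19 CPM in 2N abdomens and 1.86 to 3.22 CPM in 1N abdomens (log2 0.86 ± 0.45, adjusted p = 0.20). nAChRb1 had 4.13, 5.98, 2.16, 0 and 2.48 CPM in 2N abdomens, against 5.67, 6.25, 9.50, 4.73 and 10.7 CPM in 1N abdomens (log2 -1.32 ± 0.61, edgeR adjusted p = 0.15). The groups of nAChRb1 overlapped through 1 library, D117 at 5.98 CPM. The value of 0 is library D119, which also had the highest Lop1 level of the abdomens. On log2(TPM + 1), limma called nAChRb1 lower (-1.32, adjusted p = 0.034). The effect at F15 minus that at F3 was called for nAChRa11 (-1.21 ± 0.34, edgeR adjusted p = 0.031), 1 of 4 genes against 10.4% of all genes tested, and this call was lost on leaving out any 1 of D6, D10, D19, D20, D109 or D110 (adjusted p from 0.050 to 0.064). In male heads the effect at F15 minus that at F3 was called for 0 of 4 genes by edgeR, against 3.57% of all genes tested, 2421 of which had an unadjusted p under 0.05. Without D13 it was called for nAChRa1 (1.17 ± 0.35, adjusted p = 0.045). D13 stood apart by its nAChRa1 level, so this call is not independent of that level.

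Between generations, nAChRa10 was lower in late than in early heads in 3 of 4 groups and higher in the other one, triploid females. It was at 12.97 to 18.02 CPM in F14 2N female heads and 15.9 to 37.8 CPM in F2 2N female heads, overlapping through D23 (log2 -0.93 ± 0.23, edgeR adjusted p = 0.0069). It was at 13.9 to 18.1 CPM in F15 2N male heads and 17.796 to 32.99 CPM in F3 2N male heads (-0.70 ± 0.17, adjusted p = 0.0069). In F15 1N male heads it was at 13.1 to 17.6 CPM, against 20.01 to 29.95 CPM in F3 1N male heads, with no overlap (-0.69 ± 0.17, adjusted p = 0.0091). In F14 3N female heads it was higher, with no overlap (33.9 to 66.1 CPM, against 17.04 to 26.9 CPM at F2; 1.28 ± 0.23, adjusted p = 0.0014). The calls in diploid heads were lost on the TPM scale (log2(TPM + 1), limma adjusted p = 0.089 in females and 0.22 in males), on which the median of all genes was shifted by more than 0.1 in most comparisons. The male one was also lost when the 2 groups were fitted alone (adjusted p = 0.062).

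nAChRb1 rose between F2 and F14 in triploid female heads (1.73 ± 0.47, edgeR adjusted p = 0.018), with 1 overlapping library, D82B. This call was lost without D81 (adjusted p = 0.051), with these 2 groups fitted alone (0.16), and on log2(TPM + 0.1) (limma adjusted p = 0.052). In diploid female heads the F14 libraries were all below the F2 libraries for nAChRb1 (36.9 to 66.2 CPM, against 85.9 to 96.9 CPM), yet the difference was not called (-0.81 ± 0.45, adjusted p = 0.22) except with the 2 groups alone (-0.80, adjusted p = 6.649e-04). In heads, nAChRa1 and nAChRa11 were not called between generations by the edgeR fit over all groups of a sex. With the 2 groups fitted alone, nAChRa11 was called lower in F15 1N male heads (-0.29, adjusted p = 0.041), and on log2(TPM + 1) nAChRa1 was called higher in F15 2N male heads (0.85, limma adjusted p = 0.049). Without D31 and D32 both were called higher in F14 3N heads (3.03 ± 0.49 and 1.19 ± 0.27, adjusted p = 5.3e-04 and 0.0044), and without D13 nAChRa1 was called higher in F15 2N male heads (0.98 ± 0.26, adjusted p = 0.011). D13, D31 and D32 stood apart by the levels of these genes, so these calls are not independent of those levels. The numbers called were 2 of 4 in 3N female heads, against 15.6% of all genes tested called, and 8.08% called higher. They were 1 of 4 in 2N female heads, 2N male heads and 1N male heads, against 19.4%, 18.3% and 14.4% of all genes. In 3N female heads Tm1 and Zasp66 were called higher at F14 (edgeR log2 3.35 and 2.87), while Lop1 (-1.87) and the ovary marker oskar (-2.05) were called lower. In 2N female heads Tm1 and Zasp66 were called lower at F14 (-2.08 and -1.86), and in 1N male heads oskar was called higher at F15 (1.18). Tm2 was not called in 2N female heads, at 69.96 to 77.03 CPM at F14 and 55.95 to 68.2 CPM at F2. The part of these markers was not tested.

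In 3N female abdomens all 4 genes were higher at F14 than at F2, where they were almost absent. At F2 nAChRb1 had 0 counts in all 5 libraries, nAChRa10 had 3 counts in all, nAChRa11 was at 0 to 0.200 CPM and nAChRa1 at 0 to 0.280 CPM. Every F14 library was above every F2 library for each gene. nAChRb1 was at least 27.9-fold higher at F14, taking 3 counts over the group as the limit, and nAChRa10 had a ratio of 176 (95% counting interval 59.8 to 858). nAChRa1 and nAChRa11 rose by 4.10 ± 0.65 and 4.29 ± 0.82 on the log2 scale (edgeR adjusted p = 6.1e-05 and 2.9e-04). Of all genes tested 75.1% were called, 40.1% called higher and 61% not overlapping. Syt1 was at 28.6 to 96.9 CPM at F14 and 2.90 to 4.17 CPM at F2. The muscle sum was 1505 to 3637 CPM at F14 and 569 to 620 CPM at F2. Of its 3 genes, 2 were called higher and 1, Tm2, lower at F14 (56.3 to 75.8 CPM, against 97.6 to 112.3 CPM). The ovary sum was 260.2 to 656 CPM at F14 and 853 to 965 CPM at F2, and Hex70b was called higher at F14 (edgeR log2 5.42). The part of these was not tested.

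In male abdomens, nAChRa11 was lower at F15 than at F3 in diploids. It had 4.95, 3.47, 1.69, 2.94 and 3.63 CPM at F15, against 7.60, 5.99, 5.55, 8.96 and 8.10 CPM at F3, with no overlap (-1.07 ± 0.24, edgeR adjusted p = 0.0023). This was 1 of 4 genes, against 35.4% of all genes tested. nAChRa1 was called as well without D119 (-0.83, adjusted p = 0.034). D119 had the highest nAChRa1 level of the F15 diploids, at 3.13 CPM, so this call is not independent of that level. Syt1 was also lower in diploids at F15, at 66.9 to 121 CPM, against 110.8 to 136 CPM at F3 (-0.54 ± 0.16, adjusted p = 0.015), as was Hex70b (-1.40 ± 0.50, adjusted p = 0.038). Zasp66 (0.70) and Lop1 (7.99) were called higher at F15, and Tm1 and Tm2 were not called. Most of the Lop1 level at F15 came from D119, at 319 CPM, against 0.398 to 15.97 CPM in the other libraries of that group. D117 and D120, at 0.447 and 0.398 CPM, lay within the F3 range of 0.056 to 0.55 CPM. The part of these markers was not tested. In 1N male abdomens 0 of 4 genes were called by edgeR, where 29% of all genes were called and 4625 had an unadjusted p under 0.05. There nAChRb1 was higher in every F15 library than in every F3 library (4.73 to 10.7 CPM, against 1.03 to 4.37 CPM; log2 1.36 ± 0.62, adjusted p = 0.10), and it was called with the 2 groups fitted alone (1.31, adjusted p = 0.014) and on log2(TPM + 1) (1.08, limma adjusted p = 0.046).

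Between the sexes, nAChRb1 was the 1 gene called in heads, in early diploids. Males were always sampled a generation after the females, so sex and that generation cannot be told apart. In early diploids it had 85.9 to 96.9 CPM in F2 female heads, against 48.7, 49.9, 1.27, 27.1 and 24.3 CPM in F3 male heads, with no overlap. It was 3.03-fold higher in females (log2 1.60 ± 0.50, edgeR adjusted p = 0.013), and 1.29 ± 0.41 without D13 (adjusted p = 0.018). D13 stood apart by its nAChRb1 level, so the p-value without it is not independent of that level. With these 2 groups fitted alone the nAChRb1 call was lost (1.56, adjusted p = 0.084) and nAChRa11 was called higher in females (0.50, adjusted p = 0.036). The muscle sum was 2046 to 6699 CPM in F2 female heads, against 540 to 1293 CPM in F3 male heads, with Tm1 and Zasp66 called higher (edgeR log2 2.27 and 2.44). Tm2 was not called, at 55.95 to 68.2 CPM in the females and 61.2 to 102.3 CPM in the males. The part of these genes was not tested. Against F3 haploid male heads, at 22.3 to 60.9 CPM of nAChRb1, females were again above every male library, but the value of 1.14 ± 0.50 was not called (adjusted p = 0.091), except with the 2 groups fitted alone (adjusted p = 0.0062). The early comparisons called 1 of 4 genes against diploid males and 0 of 4 against haploid males, and 37.1% and 24.5% of all genes tested. Late, F14 2N female heads were called different from F15 2N and F15 1N male heads in 0 of 4 genes by edgeR, against 9.08% and 9.73% of all genes, of which 2442 and 2641 had an unadjusted p under 0.05. The late nAChRb1 values were -0.16 ± 0.49 against diploid males, with a 95% interval of -1.12 to 0.81, and 0.16 ± 0.49 against haploid males. Both sex comparisons of a stage share the female libraries. A difference between the early and the late sex effect was not tested.

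In abdomens the sexes were compared for F14 2N and F2 3N females. F14 3N females, which were not tested against males, averaged 2.85 ± 1.12 CPM of nAChRa1 and 4.36 ± 3.46 CPM of nAChRa10 (SD, n = 4), against 2.23 ± 0.796 and 2.54 ± 0.547 CPM in F15 1N males (n = 5). F14 2N females were lower than F15 1N males in all 4 genes, with no overlap, against 78.6% of all genes tested called, 36.7% called lower and 75.1% not overlapping. The log2 fold changes were -1.62 ± 0.42 for nAChRa1, -1.604 ± 0.49 for nAChRa10, -1.66 ± 0.45 for nAChRa11 and -2.45 ± 0.64 for nAChRb1 (edgeR adjusted p from 8.2e-04 to 0.0041). Against F15 2N males 3 of 4 genes were called lower, with 80.6% of all genes called and 39.4% called lower. nAChRb1 was at 0.923 to 1.93 CPM in these females and 0 to 5.98 CPM in the diploid males, overlapping through D119 (-1.15 ± 0.62, adjusted p = 0.089). It was called without D119 (-1.47, adjusted p = 0.0039), with the size factors of DESeq2 in edgeR (-1.60, adjusted p = 0.022), with DESeq2 itself (-1.60, adjusted p = 0.0090) and without the low-count filter (-1.43, adjusted p = 0.042). The median of all genes in this comparison moved too, by -0.439 with these size factors, -0.54 with DESeq2 and -0.285 without the filter (log2). D119 stood apart by its nAChRb1 level of 0 CPM, so the call without D119 is not independent of that level. Syt1 was at 17.85 to 27.7 CPM in F14 2N female abdomens, against 66.9 to 121 CPM in F15 male abdomens, and the ovary markers were at 626 to 821 CPM against 1.01 to 16.2 CPM. Zasp66 and Hex70b were called lower in the females against both male groups, Tm2 was called higher against both, and Tm1 was called lower against 1N males. Their part was not tested.

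F2 3N female abdomens were lower than F3 2N male abdomens in all 4 genes, a comparison in which 87.9% of all genes tested were called, 48.8% were called lower and the median of all genes was -0.47 on the log2 scale. nAChRb1 was at least 185-fold lower in the females, and for nAChRa10 the males had a 194-fold higher pooled level (95% counting interval 65.8 to 942). nAChRa1 and nAChRa11 fell by 4.31 ± 0.49 and 6.10 ± 0.59 (edgeR adjusted p = 1.5e-09 and 5.7e-11). Syt1 was at 2.90 to 4.17 CPM in the females, against 110.8 to 136 CPM in the males (log2 -5.00 ± 0.26), and the ovary sum at 853 to 965 CPM against 0.958 to 2.92 CPM. Hex70b (-8.94), Tm1 (-1.88) and Zasp66 (-6.19) were called lower and Tm2 (0.79) higher in the females. The part of these markers was not tested. Ploidy and sex both differ in this comparison and cannot be told apart.

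The other nicotinic subunit genes in the table were nAChRa2, nAChRa3, nAChRa4, nAChRa5, nAChRa8, nAChRa9, nAChRa12 and nAChRb3. In F2 female heads 7 of these 8 were tested, and 3 were called lower and 3 higher in triploids. Of all 11127 genes tested, 2302 were called lower and 2418 higher. nAChRa3 was at 4.76 CPM in 3N heads and 41.4 CPM in 2N heads (log2 -3.14 ± 0.38), nAChRa4 at 5.53 and 45.2 CPM (-3.05 ± 0.48), and nAChRa2 at 33.7 and 65.4 CPM (-0.98 ± 0.21). nAChRa8 was at 224 CPM in 3N heads and 103.4 CPM in 2N heads (1.09 ± 0.18), nAChRb3 at 13.1 and 6.16 CPM (1.07 ± 0.27), and nAChRa5 at 21.6 and 13.8 CPM (0.63 ± 0.22). Over the 11 tested subunits, the 4 included, the median was -0.39, against 0.05 over all genes. So nAChRb1 and nAChRa11 fell in the same comparison as nAChRa2, nAChRa3 and nAChRa4, while nAChRa8 and nAChRb3 rose.

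**Figure D4:**
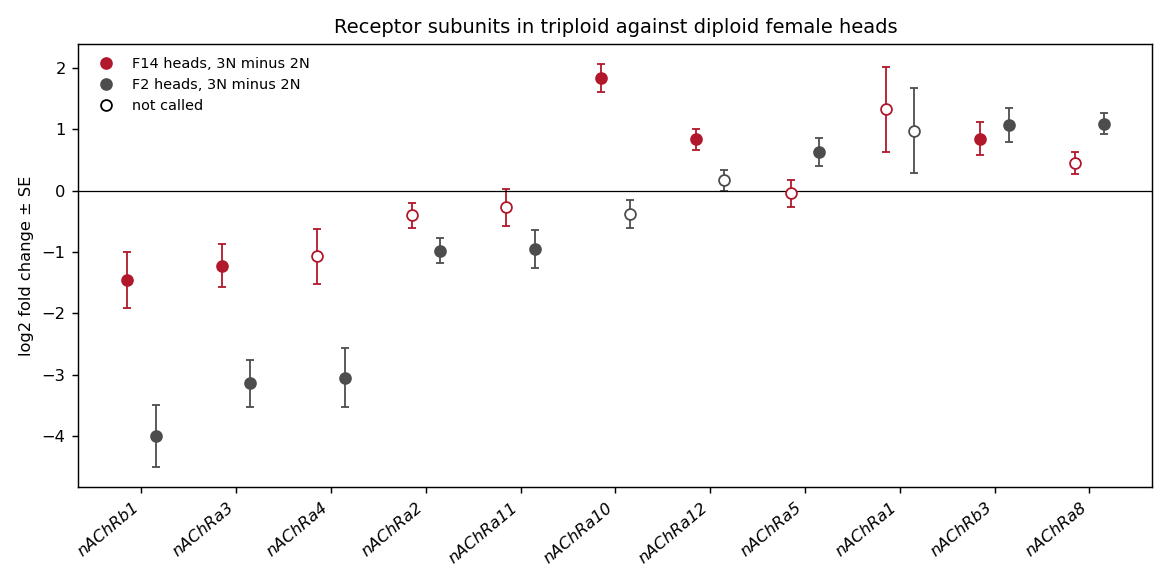
Log2 fold change (± SE) of the 11 tested subunit genes in 3N against 2N female heads, at F14 (red) and F2 (grey), ordered by the F2 value. Filled points have an edgeR adjusted p under 0.05; nAChRb1, nAChRa3 and nAChRa4 are below -3 at F2, and nAChRa10 is the highest at F14.

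In F14 female heads 2 of the 7 other subunits rose and 1 fell. Of all 11127 genes tested, 1782 were called higher and 1520 lower. nAChRa12 was at 33.6 CPM in 3N heads and 18.7 CPM in 2N heads (log2 0.83 ± 0.18), nAChRb3 at 15.7 and 8.73 CPM (0.85 ± 0.27), and nAChRa3 at 16.8 and 38.7 CPM (-1.22 ± 0.36), with edgeR adjusted p of 0.0016, 0.024 and 0.014. The change of the triploid effect between F2 and F14 was called for nAChRa3 (1.92 ± 0.50) and nAChRa4 (1.98 ± 0.64) besides nAChRa10 and nAChRb1, giving 4 of 11 subunits. It was called for 2705 of all 11127 genes tested. In F14 female abdomens nAChRa8 (1.14 ± 0.30) and nAChRa12 (1.86 ± 0.69) rose besides nAChRa1 and nAChRa10, and in F3 male abdomens nAChRa8 rose (0.80 ± 0.25). In male heads 0 of 11 subunits were called at either generation by edgeR, where 12 of 11010 genes tested were called at F15 and 1780 at F3. Between F15 and F3 2N male abdomens, 4 of 8 other subunits fell, nAChRa2, nAChRa4, nAChRa5 and nAChRa8, besides nAChRa11. Of all 11358 genes tested there, 1770 were called lower.

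Other ligand-gated channels were represented by 5 genes, GRD, LCCH3, GluCl, HisCl1 and pHCl, which in insects encode or resemble subunits of chloride channels opened by inhibitory signals or protons. In F2 female heads 2 of 5 fell in triploids: GluCl, the glutamate-gated channel (log2 -2.47 ± 0.44), and HisCl1, the histamine-gated channel (-1.70 ± 0.56). Of all 11127 genes tested there, 4720 were called, 2302 of them lower. In F14 female heads 2 of 5 rose, LCCH3 (0.90 ± 0.16) and pHCl (0.43 ± 0.11). There 3302 of all 11127 genes tested were called, 1782 of them higher. The potassium channel gene Slo was at 20.7 CPM in F2 3N heads, against 85.8 CPM in F2 2N heads (-2.08 ± 0.45, edgeR adjusted p = 9.8e-04). Genes for acetylcholine synthesis and breakdown, muscarinic receptors and receptor assembly were looked up by symbol, and 0 rows matched.

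The 4 genes were called higher in heads in all 7 tissue comparisons, but head levels above abdomen levels were not particular to them. In male libraries nAChRa8 was at 90.6 to 442 CPM in heads and 3.47 to 16.6 CPM in abdomens. For nAChRa12 these ranges were 21.97 to 44.4 CPM and 1.01 to 6.59 CPM. Some other subunits did not follow the tissue pattern in males. nAChRb3 was called in 0 of 4 male tissue comparisons, at 8.11 to 12.8 CPM in heads and 5.56 to 14.3 CPM in abdomens (group means). nAChRa9 was called lower in heads in all 4, with group means of 0 to 0.0525 CPM in heads and 1.05 to 2.64 CPM in abdomens. nAChRa3 was called higher in heads in F3 1N males (1.64 ± 0.49) and in no other male group.

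The 4 genes also varied together to unequal degrees across the 40 head libraries, which share tissue but differ in sex, generation and ploidy. On log2 CPM, nAChRb1 and nAChRa11 had a Pearson r of 0.79 and a Spearman rho of 0.76. nAChRb1 with nAChRa1 gave -0.01 and 0.09, and with nAChRa10 -0.34 and -0.34. Among the other subunits nAChRb1 was most like nAChRa3 (r = 0.88, rho = 0.77) and most unlike nAChRa8 (r = -0.77, rho = -0.71). Over the 8476 genes whose mean in heads reached 5 CPM, the gene most like nAChRb1 was LOC100124281 (r = 0.97, rho = 0.96; r = 0.97 without the 2 libraries farthest from the median), followed by LOC100119025, LOC100678758, LOC100114069 and LOC100677798. For nAChRa11 it was LOC100678782 (r = 0.94, rho = 0.77; r = 0.83 without D33 and D34), for nAChRa1 LOC100119051 (r = 0.87, rho = 0.68) and for nAChRa10 LOC100118315 (r = 0.86, rho = 0.86). The 5 most alike genes of each member in heads and in the 34 abdomens shared 0 names. These correlations describe libraries that share groups, and carry no test.

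In the RefSeq annotation of assembly Nvit_psr_1.1, nAChRa1 lies on chromosome 1 directly after nAChRa2, and overlaps 0 other genes. nAChRa10 and nAChRa11 lie on chromosome 4 and each overlap 1 other gene model, LOC100678010 and LOC100114113. nAChRb1 lies on chromosome 2 within a stretch where 7 other models overlap it. Whether counting used strand is not given in the sources used here, so reads of nAChRa10, nAChRa11 or nAChRb1 and of an overlapping model on the other strand may not have been told apart.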

How the data were processed

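Poly(A) RNA libraries of heads and abdomens were prepared with a NEBNext Ultra kit, per the labels' protocols. Reads were processed with STAR 2.7.11a and RSEM 1.3.1, per the submitters' processing notes. Their genome build is not given in the sources used here. For each library the authors deposited expected counts of 14621 genes and TPM of 14613 genes. Expected counts were rounded to whole numbers and tested in R 4.3.3 with edgeR 4.0.16 (TMM scaling, filterByExpr set to min.count 10 and min.total.count 15, robust quasi-likelihood F test), with Benjamini-Hochberg adjustment over all genes tested and a threshold of 0.05. Ploidy, generation and their interaction were fitted over the groups of 1 sex and tissue, sex over all groups of a tissue, and tissue over all groups of a sex, which gave 31 comparisons. All 4 genes passed the filter in all 31. SE was derived from the F statistic, and intervals are 95%. CPM were scaled by TMM over 79 libraries. Intervals and limits from counts cover counting error only.

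The members and gene lists were chosen with earlier results of these data known. The genes named beside the 4 were the other subunits, up to 4 genes of each list by smallest adjusted p in female heads, and the 5 genes most alike. The tests were also run on simulated counts with known changes and the same spread setting for every gene. The groups here spread unequally, so that run does not bear on single calls. Alternatives were DESeq2 size factors in edgeR, DESeq2 1.42.0, no filter, only the compared groups fitted, limma 3.58.1 (trend) on log2(TPM + 1) and log2(TPM + 0.1) of genes with a mean TPM of at least 1, each library left out, and D31 and D32 left out. D31 and D32 stood apart in the levels of the genes under test, so leaving them out is not an independent check. No block was fitted: library numbers are unique. No sequences are shown, since the sources used here hold none.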

Additional observations from a re-analysis of the deposited data

Results flagged for a closer look

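The triploid effect in female heads differed between generations, F14 minus F2, for nAChRa10 (2.21 ± 0.32 on the log2 scale, edgeR adjusted p = 8.8e-05) and nAChRb1 (2.55 ± 0.65, adjusted p = 0.0077), by a test of the difference itself. In male abdomens the diploid effect differed between F15 and F3 for nAChRa11 (-1.21 ± 0.34, adjusted p = 0.031), a call that 6 single libraries each decided.

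Single libraries stood far from the rest of their group in 5 of 59 pairs of gene and group examined by the gap to the nearest library as a share of the group's range, of which chance gives about 5%. nAChRa1 was at 112.9 CPM in D13 of F3 2N male heads (26.2 to 43.7 CPM in the others) and at 3.64 CPM in D110 of F15 1N male abdomens (1.64 to 1.98 CPM). nAChRa11 was at 60.4 CPM in D82B of F14 3N female heads (73.8 to 75.0 CPM). nAChRb1 was at 96.9 CPM in D24 of F2 2N female heads (85.9 to 88.6 CPM) and at 1.93 CPM in D98 of F14 2N female abdomens (0.923 to 1.17 CPM).

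The 5 left-out libraries labelled F2 2N female abdomen held the genes at levels above every other abdomen library. Their means were 38.15 CPM for nAChRa1, 34.95 CPM for nAChRa10, 63.4 CPM for nAChRa11 and 50.9 CPM for nAChRb1, where the highest other abdomen library had 5.12, 9.32, 8.96 and 10.7 CPM of these genes.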

How the results depend on the processing

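Of 61 called results for the 4 genes, 53 kept their call under every alternative that tested them, and of 16 results that changed direction under an alternative 0 were called with all libraries in the edgeR fit. The TPM scale moved the median of all genes by more than 0.1 (log2) in 21 of 31 comparisons with a pseudocount of 1 and in 22 with 0.1, by -0.551 to 0.796. DESeq2 moved it by more than 0.1 in 7 comparisons (-0.545 to 0.429). Its size factors in edgeR did so in 6 (-0.458 to 0.309) and leaving out the filter in 4 (-0.291 to 0.14). Fitting only the compared groups did so in 2 (-0.293 to 0.24). No paired analysis was possible because library numbers were unique to each library. Few counts limit F2 3N female abdomens, with 0 to 3 counts of nAChRb1 and nAChRa10 in all. The cause of the changes below was not tested, except that some genes had no test: nAChRa1 and nAChRb1 on both TPM scales in female abdomens, under the mean TPM filter, and nAChRa11 and nAChRb1 for generation in 3N female abdomens with only the compared groups fitted.

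Numbers of the 4 genes called changed as follows. With only the compared groups fitted, 1 was called for ploidy in F2 female heads, 2 for generation in 2N female heads, 1 in 3N female heads, 2 in 3N female abdomens, 2 in 1N male heads, 0 in 2N male heads and 1 in 1N male abdomens, and 1 between early diploid female and haploid male heads. On log2(TPM + 1), 1 was called for ploidy in F14 female abdomens (nAChRa1 not tested) and 1 in F15 male abdomens, 2 for the change of the ploidy effect in male abdomens, and for generation 0 in 2N female heads, 2 in 3N female abdomens and 1 in 1N male abdomens. On log2(TPM + 0.1), 1 was called for ploidy in F14 female abdomens (nAChRa1 not tested), and for generation 0 in 2N female heads, 1 in 3N female heads, 2 in 3N female abdomens and 0 in 2N male heads. DESeq2 called 1 in F3 male heads and 2 for the change of the ploidy effect in male abdomens. Without D31 and D32, 4 were called for generation in 3N female heads and 4 for the change of the ploidy effect in female heads. Leaving out 1 library gave 1 to 2 for ploidy in F14 female heads and F3 male abdomens, 2 to 3 in F2 female heads, 0 to 1 in F3 male heads, 3 to 4 between late diploid female and diploid male abdomens, 0 to 2 and 0 to 1 for the change of the ploidy effect in male abdomens and heads, and 1 to 2 for generation in 3N female heads, 2N male heads and 2N male abdomens.

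Directions changed in these log2 values, of which 1 was a call: nAChRa1 in F2 female heads was -1.626 without D31 and D32 (edgeR adjusted p = 0.0091). It was -0.164 and -0.206 on log2(TPM + 1) and log2(TPM + 0.1), not called. On the same TPM scales nAChRa10 was -0.217 and -0.225 for ploidy in F3 male heads, 0.3845 and 0.4005 for the change of that effect, and -0.0633 and -0.1303 for generation in 2N male abdomens, and nAChRa11 was 0.217 and 0.218 for generation in 2N female heads. Between early diploid female and haploid male heads they gave -0.0535 and -0.0524 for nAChRa1, -0.00288 and -0.00356 for nAChRa10 and -0.0826 and -0.0830 for nAChRa11. nAChRa11 in F14 female abdomens was -0.106 on log2(TPM + 0.1). The change of the nAChRa10 ploidy effect in male heads was 0.00101 with DESeq2 size factors and 5.78e-04 with DESeq2, nAChRa1 in F15 male abdomens was -0.0064 without the filter, and nAChRa10 between late diploid female and haploid male heads was -0.00355 with only the compared groups. Leaving out 1 library gave, for nAChRa1, -0.0287 to 1.051 for the change of the ploidy effect in female heads, -0.5806 to 0.162 for ploidy in F3 male heads, -0.1685 to 0.239 in F15 male abdomens, -0.0994 to 0.197 for generation in 2N female heads, and -0.0540 to 0.246 and -0.0707 to 0.668 for early diploid female heads against haploid and diploid male heads. It gave, for nAChRa10, -0.00314 to 0.221 for ploidy in F3 male heads, -0.144 to 0.0970 for the change of that effect, -0.286 to 0.251 for generation in 2N male abdomens and -0.0639 to 0.0888 for late diploid female against haploid male heads. For nAChRa11 it gave -0.0137 to 0.117 between late diploid female and diploid male heads.

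Over all genes, the number called with only the compared groups fitted was 378 in place of 1780 for ploidy in F3 male heads, 128 in place of 12 in F15 male heads and 0 in place of 1259 in F15 male abdomens. For generation it was 4828 in place of 2156 in 2N female heads, 308 in place of 1736 in 3N female heads, 3039 in place of 1587 in 1N male heads and 649 in place of 2015 in 2N male heads. Between diploid female and male heads it was 4567 in place of 2835 (early, haploid males), 3282 in place of 1127 (late, haploid) and 2372 in place of 1051 (late, diploid). DESeq2 called more than 12 but fewer than 128 for ploidy in F15 male heads, 2007 in F15 male abdomens, and 896 in place of 393 and 1929 in place of 1184 for the change of that effect in male heads and abdomens. On log2(TPM + 1) and log2(TPM + 0.1), 933 and 873 were called for ploidy in F3 male heads, 216 and 206 for its change and 1089 and 1080 for generation in 3N female heads, and with 0.1 there were 6 for ploidy in F15 male heads. Without D31 and D32, 3030 were called for generation in 3N female heads.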
